A study of Mus musculus with 6 samples.

Results

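The genes described here encode the peptides of the KNDy neurons of the arcuate nucleus (ARC) and the receptors of those peptides: *Kiss1* (kisspeptin), *Tac2* (neurokinin B), *Pdyn* (dynorphin), *Kiss1r*, *Tacr3* and *Oprk1*. *Gm28040*, a gene annotated across the *Kiss1* locus, and its upstream neighbour *Golt1a* were included because their exons overlap those of *Kiss1*. They were chosen by symbol, with earlier results of these data known. The 8 symbols correspond to 9 Ensembl identifiers, since *Gm28040* has a pair of them, out of 22322 identifiers in the deposited table.

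RNA-seq was performed on ARC tissue of male mice cut from frozen brain sections of 20 μm by laser capture microdissection (LCM). In LCM a laser frees a chosen area of a section, so each sample held RNA of all cell types in that area. From 4 weeks of age the mice received a normal-chow diet (NCD) with 16.5% fat or a high-fat diet (HFD) with 60% fat. Both were given for 16 weeks, and no other treatment or allele is given in the labels. The study also used Kiss1-Cre mice crossed with R26R-EYFP reporter mice to show where Kiss1 neurons lie, and its wild type animals were C57BL/6J. There were 3 samples per diet, named NCD1 to NCD3 and HFD1 to HFD3. Whether each sample came from its own animal is not stated, so the p-values below measure the spread between these samples. The NCD libraries held 15925648, 9937632 and 6882449 counts and the HFD libraries 8024664, 10479778 and 5171381, in the order of their numbers. The comparison of the diets asks whether the ARC tissue that generates LH pulses differs in males on the HFD.

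KNDy neurons release kisspeptin, which acts through its receptor on GnRH neurons and thereby drives pulses of LH. Within the ARC, neurokinin B excites KNDy neurons through the receptor encoded by *Tacr3*, and dynorphin restrains them through the kappa opioid receptor encoded by *Oprk1*. Each peptide is cut out of a longer precursor, mostly at pairs of basic residues, and kisspeptin and neurokinin B carry a glycine that becomes a C-terminal amide.

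Coding stretches of kisspeptin and neurokinin B are shown because the rows of *Kiss1* and *Gm28040* can be told apart only by the bases around this sequence, while *Tac2* has a locus of its own. They were read from the GENCODE M21 transcripts (GRCm38) and are spliced, 5′ to 3′ on the strand of the gene. The part of the Kiss1-201 coding sequence in its last exon, which holds kisspeptin, lies at chr1:133329356-133329642 on the plus strand, and the neurokinin B stretch of Tac2-201 spans chr10:127728473-127729154 on the plus strand. Capitals mark the codons of a glycine and the pair of basic residues after it.
Kiss1: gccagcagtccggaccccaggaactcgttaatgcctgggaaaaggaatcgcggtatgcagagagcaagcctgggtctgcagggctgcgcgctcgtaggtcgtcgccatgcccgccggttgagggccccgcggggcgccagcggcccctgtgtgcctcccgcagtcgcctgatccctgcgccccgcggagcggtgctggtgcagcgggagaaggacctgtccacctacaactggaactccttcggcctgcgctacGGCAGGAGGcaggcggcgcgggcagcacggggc
Tac2: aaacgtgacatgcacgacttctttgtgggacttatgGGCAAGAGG
The coding sequences of *Kiss1* and *Tac2* held 1 such amidation signal each.

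The *Kiss1* row of the table could not be read as the level of kisspeptin mRNA. *Kiss1* (ENSMUSG00000116158, chromosome 1, 133321875 to 133329901, plus strand) has 779 exonic bases, and 0 of them are its own. All 779 are also exons of the *Gm28040* identifier ENSMUSG00000098306 (133309827 to 133329901), and 498 (63.9%) are also exons of the other, ENSMUSG00000115958 (133309827 to 133329722). Transcripts Gm28040-203, Gm28040-204 and Gm28040-205 of ENSMUSG00000115958 code with the same 378 bases as Kiss1-201, of which 287 are printed above. The *Kiss1* transcript of 496 bases lies whole inside Gm28040-201, Gm28040-204 and Gm28040-205. ENSMUSG00000115958 has 158 bases of its own out of 741, in the first exon of Gm28040-205 and at the start of the exon that holds the start codon. *Golt1a* (133309800 to 133323026), which encodes a protein of vesicle transport, has 1131 own bases out of 1919.

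**Figure D1:**
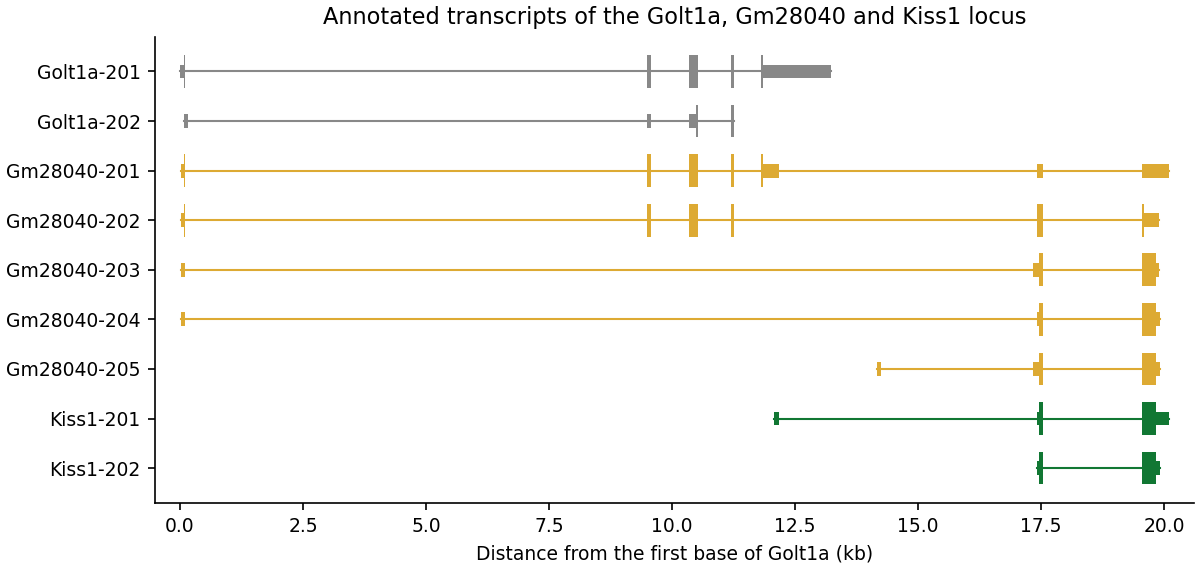
Exons (thin boxes), coding parts (tall boxes) and introns (lines) of the annotated transcripts of *Golt1a*, *Gm28040* and *Kiss1*, by distance in kb from the first base of *Golt1a*. The coding boxes of both *Kiss1* transcripts stand at the same places as those of Gm28040-203, Gm28040-204 and Gm28040-205.

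The *Kiss1* row held 0, 27 and 32 counts for the NCD libraries, in the order of their numbers, and 0, 21 and 42 for the HFD libraries. The row of ENSMUSG00000115958 held 70, 15 and 25 counts for NCD and 99, 39 and 37 for HFD. In normalized CPM (counts scaled to the library total and edgeR's TMM factor) this row had 4.21, 1.53 and 3.76 for NCD and 12.3, 3.84 and 6.95 for HFD. Of the libraries in which *Kiss1* was listed at 0, HFD1 had the highest *Gm28040* level, and NCD1, the largest library, lay below HFD3. The identifier ENSMUSG00000098306 had 3 counts in NCD1 and 0 elsewhere, and *Golt1a* had 2 counts in HFD2 and 0 elsewhere. A count of 0 allows up to 3 counts, which is 0.188 CPM (here scaled to the library total alone) in NCD1 and 0.58 CPM in HFD3. Such limits and the intervals of shares cover counting error only.

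Of the counts of *Kiss1* and *Gm28040* together, *Gm28040* held 100% in NCD1 (95% Wilson interval from 95%), 35.7% in NCD2 (23.0 to 50.8%) and 43.9% in NCD3 (31.8 to 56.7%). It held 100% in HFD1 (from 96.3%), 65.0% in HFD2 (52.4 to 75.8%) and 46.8% in HFD3 (36.2 to 57.7%). Within each diet the interval of library number 1 lay above those of the other libraries, whose intervals overlapped each other, and the diets overlapped as well (59.9% ± 35.0 for NCD against 70.6% ± 27.0 for HFD, SD, n = 3, two-sided exact permutation test, p = 0.6). With 3 samples against 3 this test cannot give a p under 0.1. The difference of 10.8 percentage points turned to -3.94 without HFD1 and to -1.32 without NCD2, fell to 2.75 without NCD3, and was 30.8 without NCD1 and 22.6 without HFD3. The *Kiss1* row depends on this division of reads, and the summed count of both genes does not. In the 4 libraries with *Kiss1* counts, the transcript length implied by count and FPKM (fragments scaled to transcript length and mapped reads) was 494 bases in NCD2, 491 in NCD3, 540 in HFD2 and 493 in HFD3, closest to the 496 bases of Kiss1-202. For ENSMUSG00000115958 it ran from 631 to 664 bases, between Gm28040-203 (624) and Gm28040-205 (656) or just above.

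Summed over *Kiss1* and *Gm28040*, the locus had 73, 42 and 57 counts for NCD and 99, 60 and 79 for HFD. On the scale of TMM-normalized CPM these were 4.39, 4.27 and 8.57 for NCD and 12.3, 5.91 and 14.8 for HFD. HFD1 and HFD3 lay above every NCD library, and HFD2 lay below NCD3, so the groups overlapped. The mean was 5.74 ± 2.45 CPM in NCD and 11.0 ± 4.60 in HFD (SD, n = 3), or 1.93-fold higher in HFD (log2 fold change 0.95, SE 0.40, 95% interval 0.08 to 1.83). The unadjusted p of edgeR's quasi-likelihood test was 0.0353, and the Benjamini-Hochberg adjusted p over all genes tested was 0.999. An exact permutation test of the 3 values against 3 gave p = 0.2. With *Golt1a* added the log2 fold change was 0.96, with an unadjusted edgeR p of 0.0322. In bulk tissue, fewer cells of a type cannot be told apart from less RNA per cell, here and in all results below.

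**Figure D2:**
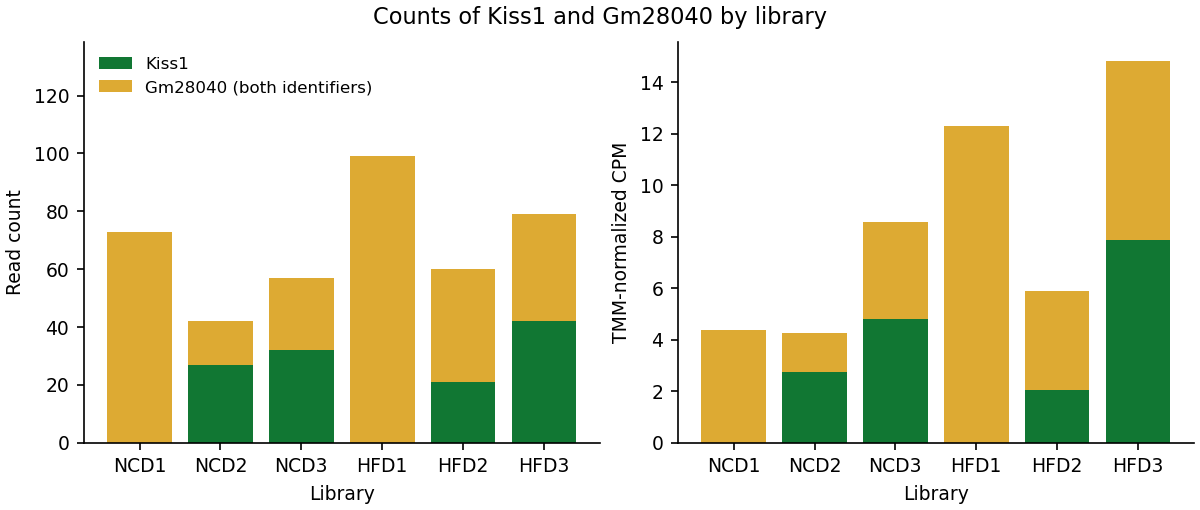
Read counts (left) and TMM-normalized CPM (right) of *Kiss1* and of *Gm28040* (both identifiers) in each library, as stacked bars. NCD1 and HFD1 have no *Kiss1* counts, and the summed bars run from 4.27 to 8.57 CPM in NCD and from 5.91 to 14.8 CPM in HFD.

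The rows were also tested one by one, and the difference between them was not tested. *Kiss1* measured 2.52 ± 2.41 CPM in NCD and 3.32 ± 4.09 in HFD (SD, n = 3), which gave 0.42 as log2 fold change with a 95% interval from -2.18 to 3.02 (edgeR, unadjusted p = 0.733; exact permutation test, p = 0.9). Its direction turned without NCD1 (-0.27), without HFD3 (-1.12) and with library size as a covariate (-0.62), and the value was 1.30 without NCD3, 1.03 without HFD1 and 0.67 without HFD2. ENSMUSG00000115958 measured 3.16 ± 1.44 CPM in NCD and 7.69 ± 4.27 in HFD, with a log2 fold change of 1.27 (SE 0.49), an unadjusted edgeR p of 0.0226 and an exact permutation p of 0.2. HFD2, at 3.84 CPM, lay below NCD1, at 4.21 CPM. Without HFD1 the log2 fold change of this row was 0.74 (unadjusted edgeR p of 0.19), and without NCD2 it was 0.94 (unadjusted edgeR p of 0.0904). With NCD1 and HFD1 left out, a comparison added after the counts had been seen, the log2 fold change of the summed locus was 0.67, with an unadjusted edgeR p of 0.22, and that of ENSMUSG00000115958 was 1.02, with one of 0.121.

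*Tac2* (ENSMUSG00000025400, chromosome 10, 127724478 to 127731768, plus strand) overlaps no other annotated gene. Its counts were 326, 269 and 224 for NCD and 398, 291 and 233 for HFD. These gave 19.6, 27.4 and 33.7 normalized CPM for NCD and 49.4, 28.7 and 43.8 for HFD. As for the summed locus, HFD1 and HFD3 exceeded every NCD library while HFD2 fell within the NCD range. The mean was 26.9 ± 7.04 CPM in NCD and 40.6 ± 10.7 in HFD (SD, n = 3), 1.52-fold higher (log2 fold change 0.60, SE 0.27, 95% interval 0.02 to 1.18). The edgeR p was 0.0422 unadjusted and 0.999 adjusted, and the exact permutation test gave p = 0.2. Without NCD1, NCD2, HFD1 or HFD3, the unadjusted edgeR p ran from 0.088 to 0.189 for *Tac2* and from 0.0948 to 0.149 for the summed locus. It was lower without NCD3 (0.0122 for *Tac2*, 0.00541 for the summed locus) and without HFD2 (0.0106 and 0.00544). The log2 fold change of *Tac2* was 0.40 without NCD1, 0.43 without HFD1 and 0.23 without both (unadjusted edgeR p of 0.469). FPKM implied a transcript of 678 bases, that of Tac2-201, in NCD2, NCD3, HFD1, HFD2 and HFD3 and 681 bases in NCD1.

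*Pdyn* (ENSMUSG00000027400, chromosome 2, 129686565 to 129699844, minus strand) did not show this pattern. Its counts were 4090, 1757 and 884 for NCD and 1463, 2140 and 871 for HFD. In normalized CPM these were 246, 179 and 133 for NCD and 182, 211 and 164 for HFD. All 3 HFD values lay inside the NCD range. The means were 186 ± 56.9 and 185 ± 23.8 CPM (SD, n = 3), and the fold change was 0.997 with a 95% interval from 0.691 to 1.44 (edgeR, unadjusted p = 0.985; exact permutation test, p = 1). Its log2 fold change ran from -0.19 without NCD3 to 0.24 without NCD1. *Pdyn* is also expressed by hypothalamic neurons other than KNDy neurons, and the tissue did not separate them.

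Ratios within a library need no scaling between libraries. The log2 ratio of *Tac2* to *Pdyn* counts was -3.65, -2.71 and -1.98 for NCD and -1.88, -2.88 and -1.90 for HFD. The lowest ratio was that of NCD1 and the highest that of HFD1, and the difference of the means was 0.56 (two-sided exact permutation test, p = 0.5). It was 0.12 without NCD1, 0.96 without NCD3 and 0.89 without HFD2. The log2 ratio of *Tac2* to the summed locus was 2.16, 2.68 and 1.97 in NCD and 2.01, 2.28 and 1.56 in HFD, a difference of -0.32 (two-sided exact permutation test, p = 0.5), which was -0.12 without NCD2, -0.13 without HFD3 and -0.49 without HFD2. Neither ratio separated the diets.

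**Figure D3:**
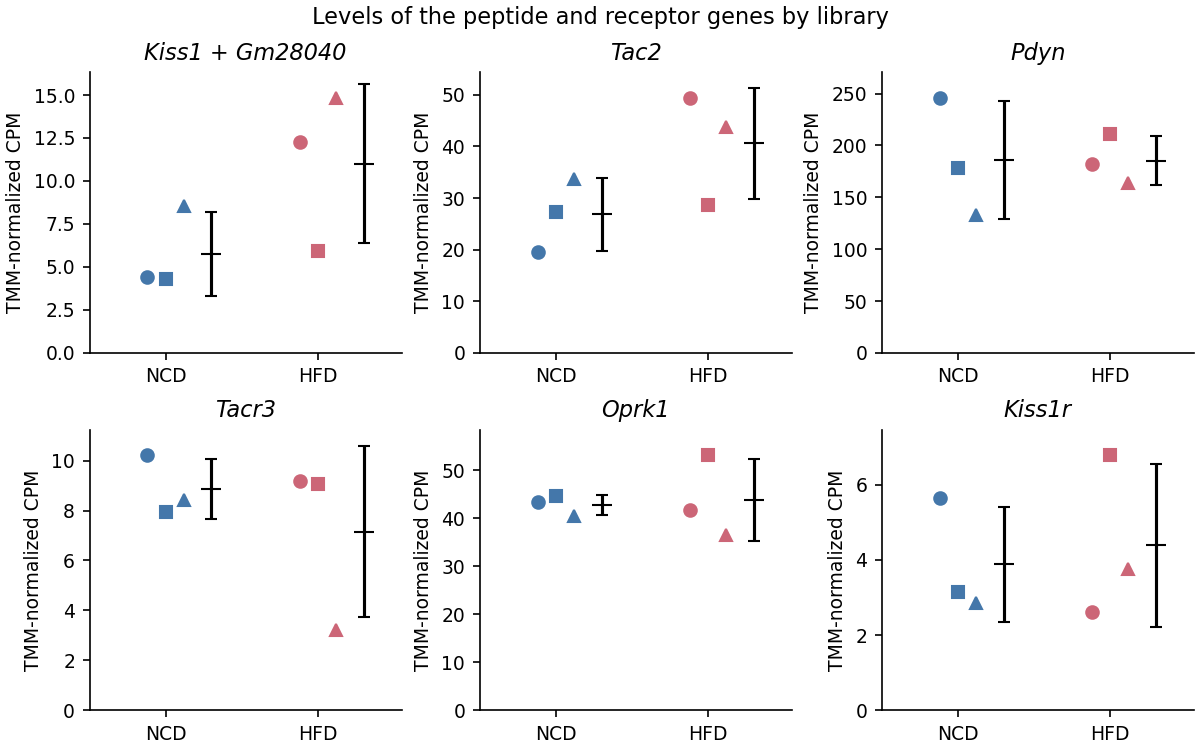
TMM-normalized CPM of the peptide genes (top) and the receptor genes (bottom) in each library (circle, number 1; square, number 2; triangle, number 3), with the mean and SD (n = 3) beside them in black. In no panel do the diets separate, and the HFD means of *Kiss1* + *Gm28040* (11.0) and *Tac2* (40.6) stand above the NCD means (5.74 and 26.9).

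Among the receptors, *Oprk1* (chromosome 1, 5588466 to 5606131, plus strand), the dynorphin receptor, was the most abundant per length (FPKM, below). It measured 43.3, 44.6 and 40.4 CPM in NCD and 41.7, 53.2 and 36.4 in HFD, with a log2 fold change of 0.04 (95% interval -0.41 to 0.49; exact permutation test, p = 0.9), which turned to -0.13 without HFD2. The NCD values lay close together, and the HFD values reached both above and below them. *Tacr3* (chromosome 3, 134829007 to 134934579, plus strand), the neurokinin B receptor, measured 10.2, 7.93 and 8.42 CPM in NCD and 9.19, 9.06 and 3.19 in HFD. Its low value in HFD3 rested on 17 counts, and the log2 fold change was -0.29 (95% interval -1.10 to 0.52; exact permutation test, p = 0.7), which turned to 0.036 without HFD3. *Kiss1r* (chromosome 10, 79916971 to 79922273, plus strand) measured 5.65, 3.15 and 2.86 CPM in NCD and 2.61, 6.80 and 3.76 in HFD, with a log2 fold change of 0.16 (95% interval -0.81 to 1.14; exact permutation test, p = 0.7), which turned to -0.33 without HFD2. It overlaps *R3hdm4* on the opposite strand, and whether strand was used in counting is not given in the sources used here. The lowest and the highest *Kiss1r* value both came from HFD libraries.

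**Figure D4:**
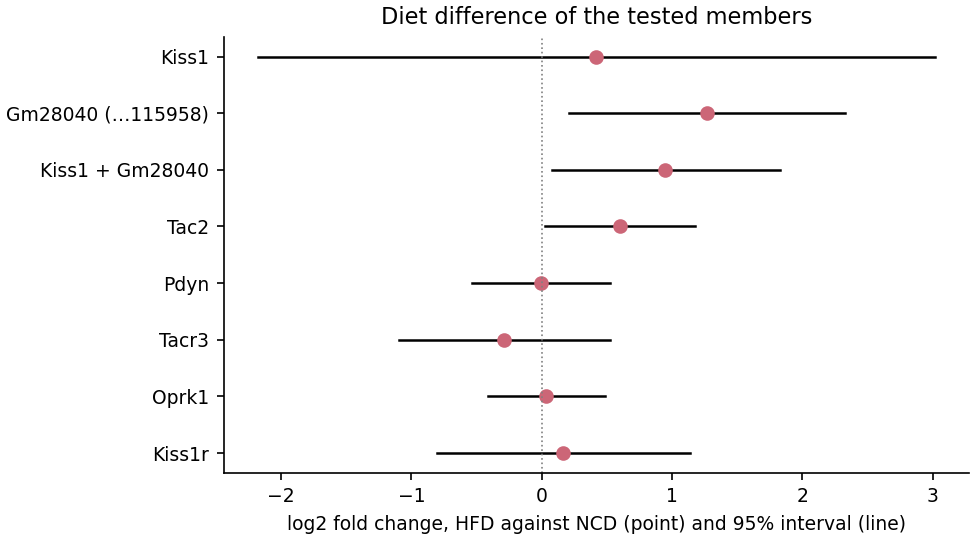
Log2 fold change of HFD against NCD for each tested member and for the summed locus (points), with a 95% interval derived from the edgeR fit (lines). The intervals of *Gm28040*, the summed locus (0.08 to 1.83) and *Tac2* (0.02 to 1.18) lie above 0, and those of the other genes include 0.

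Of the 9 identifiers, 7 passed edgeR's filter on low counts. At an adjusted p under 0.05, 0 of these 7 were called by edgeR, where 8 of all 14188 genes tested (0.0564%) were. DESeq2 called 0 of the 7 as well. At an unadjusted p under 0.05, 2 of the 7, ENSMUSG00000115958 and *Tac2*, were higher in HFD, against 1.21% of all genes tested. The former shares its reads with *Kiss1*. Both also exceeded 1.5-fold, as did 1.01% of all genes in that direction. Groups without overlap were seen in 0 of the 7 and in 6.47% of all genes. The median log2 fold change of the 7 was 0.16, and over all genes tested it was 0.0032.

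Levels were compared between genes only per length, as FPKM over the 6 libraries. Unlike the summed count, the summed FPKM of *Kiss1* and *Gm28040* depends on how reads were divided, because their rows were scaled to different lengths. *Pdyn* was highest, at 78.0 ± 17.8 FPKM (SD, n = 6), followed by *Tac2* at 49.8 ± 16.7, *Kiss1* and *Gm28040* together at 14.3 ± 7.98, *Oprk1* at 11.7 ± 2.81, *Tacr3* at 2.12 ± 0.669 and *Kiss1r* at 1.42 ± 0.629. The order of the summed locus and *Oprk1* turned between the diets. Their means were 9.92 and 11.4 FPKM in NCD and 18.8 and 11.9 in HFD. *Pdyn* exceeded *Tac2*, *Tac2* exceeded the summed locus and *Oprk1* exceeded *Tacr3* in 6 of 6 libraries (two-sided exact sign-flip permutation test, p = 0.0313 each, 0.0521 adjusted over the 5 neighbouring pairs). The summed locus exceeded *Oprk1* in 3 of 6 libraries (exact permutation test, p = 0.719), and *Tacr3* exceeded *Kiss1r* in 4 of 6 (exact permutation test, p = 0.125). No pair had an adjusted p under 0.05. The mean log2 ratio was 0.69 ± 0.71 (SD, n = 6) for *Pdyn* over *Tac2* and 0.61 ± 0.79 for *Tacr3* over *Kiss1r*. It was 0.15 ± 1.05 for the summed locus over *Oprk1*, and none of these 3 exceeded its spread. For *Tac2* over the summed locus it was 1.91 ± 0.38 and for *Oprk1* over *Tacr3* 2.51 ± 0.49.

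The levels of the peptide genes were also set against the size of the libraries. For the log2 CPM of the summed locus against the log2 total count, Pearson's r was -0.852 (p = 0.0347) and Spearman's rho -0.771 (p = 0.103), both with exact permutation over the 6 libraries. *Tac2* had r = -0.842 (p = 0.0417) and rho = -0.771 (p = 0.103) in the same exact test. *Pdyn* went the other way, with r = 0.823 (exact permutation p = 0.0472) and rho = 0.886 (exact permutation p = 0.0333). After Benjamini-Hochberg adjustment for 7 such relations, each of these r had a p of 0.11 and each rho one of 0.18. Leaving out NCD1 and HFD3, which lie farthest from the median in size, r was -0.711 for the summed locus, -0.565 for *Tac2* and 0.876 for *Pdyn*. Each diet, with 3 libraries, had too few for an r of its own. With library size added to the edgeR model as a covariate (log2 of the total), the log2 fold change was 0.51 for the summed locus, 0.36 for *Tac2* and 0.28 for *Pdyn*, with unadjusted p of 0.156, 0.098 and 0.109. For ENSMUSG00000115958 alone, r was -0.354 (exact permutation p = 0.497). With the covariate its log2 fold change was 1.26 (unadjusted edgeR p of 0.0305), and that of the *Kiss1* row was -0.62. The part of library size in the diet differences was otherwise not tested. The share of counts from the mitochondrial genome was 3.20%, 4.24% and 6.57% for NCD and 4.16%, 3.51% and 5.77% for HFD.

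**Figure D5:**
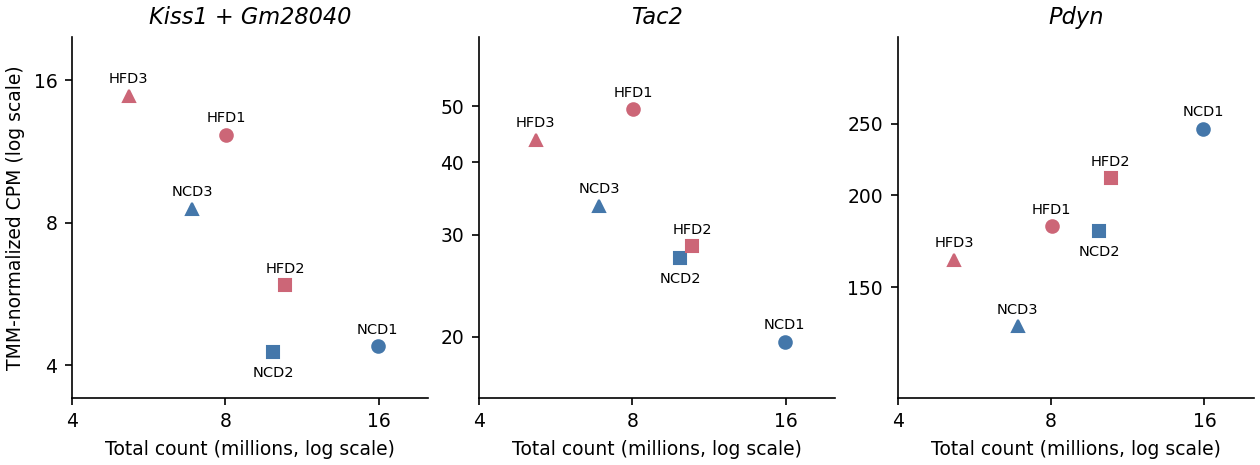
TMM-normalized CPM of *Kiss1* + *Gm28040*, *Tac2* and *Pdyn* (vertical, log scale) against the total count of each library (horizontal, log scale), NCD in blue and HFD in red. The first panels fall with the total count (r = -0.852 and -0.842) and the *Pdyn* panel climbs (r = 0.823).

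The genes whose profile over the 6 libraries lay closest to these differed from gene to gene. For the summed locus they were *Tab3*, *Mindy2* and *Vps37d*, with a root mean square difference in centred log2 CPM of 0.16, 0.17 and 0.181, where the median over all genes was 0.727. *Mindy2* measured 52.2, 60.4 and 96.3 CPM in NCD and 135, 55.0 and 167 in HFD. For *Tac2* they included *Mia* and *Siah1a* (0.105 and 0.118, median 0.523), and for *Pdyn* they were *Tbc1d10a*, *Dnajc11* and *Nup107* (0.046, 0.05 and 0.054, median 0.372). None of the lists below contains one of these named genes.

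Of the tachykinin genes, 4 of 6 were tested, 2 higher and 2 lower in HFD, and *Tac2* alone had an unadjusted p under 0.05 (edgeR). *Tac1*, which encodes substance P and neurokinin A, measured 91.0, 77.5 and 112 CPM in NCD and 51.0, 109 and 79.8 in HFD (log2 fold change -0.22, SE 0.27). *Tac4* had no count in any library, and *Tacr2* had 3 counts in HFD3 alone. Of the opioid genes, 8 of 8 were tested, 4 higher and 4 lower, with a median log2 fold change of 0.02 and 0 at an unadjusted p under 0.05 in edgeR, where 2.3% of all genes were. *Penk*, the enkephalin precursor, had a log2 fold change of 0.13 (SE 0.22) and *Pomc*, the precursor of beta-endorphin and melanocortins, one of -0.36 (SE 0.31). *Oprd1* had the lowest p of the list (log2 fold change -1.17, SE 0.60, unadjusted edgeR p of 0.0719). It measured 2.95, 2.34 and 0.751 CPM in NCD and 0.621, 1.18 and 0.939 in HFD.

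Among genes of GnRH and the RFamide peptides, 7 of 12 were tested, 6 higher and 1 lower, with a median of 0.22. The lower one was *Qrfp*, which encodes a peptide that stimulates feeding. It measured 4.09, 16.8 and 4.51 CPM in NCD and 1.37, 1.08 and 0.564 in HFD, a log2 fold change of -3.01 (SE 0.62; edgeR, adjusted p = 0.26), with an unadjusted p of 0.00033. DESeq2 gave it an adjusted p of 0.000734, where that tool called 19 of all genes. Lower at an unadjusted p under 0.05 were 1.09% of all genes. Every HFD library lay below every NCD library, as in 3.24% of all genes tested in that direction, and HFD3 had 3 counts. *Gnrh1*, which encodes GnRH itself, measured 12.9, 14.5 and 5.26 CPM in NCD and 10.1, 6.60 and 22.0 in HFD (log2 fold change 0.20, SE 0.45).

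Of the enzymes and helpers that cut and amidate peptide precursors, 10 of 10 were tested, 5 in each direction, with a median of 0.00076. *Pcsk1*, a convertase that cuts at pairs of basic residues, measured 126, 88.3 and 82.5 CPM in NCD and 65.8, 81.0 and 53.0 in HFD. All HFD values lay below the NCD values, with a log2 fold change of -0.57 (SE 0.23; edgeR, adjusted p = 0.999) and an unadjusted p of 0.0295. *Pam*, the amidating enzyme that acts on the glycine marked in the sequences above, had a log2 fold change of -0.08 (SE 0.29), and *Pcsk2*, another convertase, one of 0.11 (SE 0.19).

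Of the steroid receptors, 4 of 5 were tested, 2 higher and 2 lower, with 0 at an unadjusted p under 0.05 (edgeR). *Esr1*, the estrogen receptor alpha, had a log2 fold change of -0.21 (SE 0.28), *Pgr*, the progesterone receptor, one of 0.25 (SE 0.23) and *Nr3c1*, the glucocorticoid receptor and the most abundant of them, one of -0.04 (SE 0.21). Of 10 other genes known from ARC Kiss1 neurons, all tested, 4 were higher and 6 lower with a median of -0.16, and 0 had an unadjusted p under 0.05 (edgeR), where 2.3% of all genes did. *Slc17a6*, the vesicular glutamate transporter, had a log2 fold change of -0.29 (SE 0.22) and *Prlr*, the prolactin receptor, one of 0.11 (SE 0.24). Of 9 genes tied to puberty or to the control of *Kiss1*, 8 were tested, 4 higher and 4 lower, with a median of 0.07. *Sirt1*, a deacetylase, had the lowest p of these, with 5.23, 7.63 and 14.1 CPM in NCD and 15.0, 9.75 and 21.2 in HFD (log2 fold change 0.79, SE 0.39) and an unadjusted edgeR p of 0.0647. Of the 51 genes tested in these lists, 3 (5.88%; *Tac2*, *Qrfp* and *Pcsk1*) had an unadjusted p under 0.05 in edgeR, against 2.3% of all genes, and 0 had an adjusted p under 0.05, against 0.0564%, whereas DESeq2 called *Qrfp* alone.

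The tissue held the markers of the ARC and also markers of neighbouring areas and other cell types. The gene named as leading a list is the one with the highest mean FPKM. Of the 64 marker genes tested, 7 were higher and 3 lower in HFD at an unadjusted p under 0.05 (edgeR), together 15.6%, where 2.3% of all genes were, and 0 had an adjusted p under 0.05 in edgeR. Among the ARC markers, *Cartpt*, which encodes the CART peptide, measured 395, 672 and 577 CPM in NCD and 903, 777 and 1076 in HFD. All HFD values of *Cartpt* lay above the NCD values, with a log2 fold change of 0.75 (SE 0.25) and an unadjusted edgeR p of 0.0116. *Pomc*, its partner in the list of POMC and CART neurons, had 559, 1207 and 499 CPM in NCD and 555, 651 and 558 in HFD, and the list summed to 954, 1880 and 1076 CPM in NCD and 1458, 1427 and 1635 in HFD. The markers of AgRP neurons, *Agrp* and the more abundant *Npy*, overlapped between the diets and summed to 203, 223 and 321 CPM in NCD and 292, 183 and 355 in HFD. Of the 5 genes for GHRH, dopamine and somatostatin neurons, *Gal*, the galanin gene, had an unadjusted edgeR p of 0.00899, with a log2 fold change of 0.70 (SE 0.23) and no overlap between the diets. The log2 fold changes of *Ghrh*, *Th*, *Slc6a3* and *Sst* were 0.44, 0.21, 0.17 and 0.19, with unadjusted edgeR p from 0.167 to 0.52 and overlapping groups, and 50.5% of all genes tested had a value above 0. The list, led by *Sst*, summed to 555, 958 and 969 CPM in NCD and 1005, 1007 and 1125 in HFD.

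Of 6 markers of magnocellular and paraventricular neurons, 4 did not overlap between the diets, as in 6.47% of all genes, and they did not go one way. *Avp*, the vasopressin gene and the most abundant of them, measured 2379, 4883 and 1959 CPM in NCD and 1047, 944 and 829 in HFD (log2 fold change -1.71, SE 0.33; edgeR, adjusted p = 0.194), and its adjusted p with DESeq2 was 3.26e-05. *Oxt*, the oxytocin gene, also lay lower without overlap (log2 fold change -0.87, SE 0.28, unadjusted edgeR p of 0.0091), and *Sim1*, a transcription factor of these neurons, had a log2 fold change of -0.60 (SE 0.29, unadjusted edgeR p of 0.0629). *Trh*, which encodes thyrotropin-releasing hormone, lay higher without overlap, with 44.6, 70.8 and 72.0 CPM in NCD and 94.0, 86.2 and 86.0 in HFD (log2 fold change 0.51, SE 0.22, unadjusted edgeR p of 0.0374). *Crh* and *Otp* overlapped, with log2 fold changes of -0.31 and 0.36. The summed level of the list, most of it *Avp*, was 2956, 5901 and 2638 CPM in NCD and 1429, 1496 and 1348 in HFD. The markers of the ventromedial nucleus, led by *Adcyap1*, summed to 366, 376 and 372 CPM in NCD and 372, 440 and 331 in HFD, and those of the dorsomedial nucleus, led by *Npvf*, to 107, 83.7 and 161 in NCD and 171, 118 and 148 in HFD. Of the dorsomedial markers *Grp* had a log2 fold change of 1.12 and an unadjusted edgeR p of 0.0393, with 2.95, 3.56 and 13.2 CPM in NCD and 16.1, 10.3 and 15.0 in HFD. The lateral hypothalamic list, led by *Pmch*, summed to 457, 757 and 738 CPM in NCD and 416, 1996 and 282 in HFD.

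Among markers of other cell types, 1 of 6 tanycyte genes, *Crym*, had an unadjusted edgeR p under 0.05, where 2.3% of all genes did, with 17.5, 9.15 and 14.1 CPM in NCD and 30.04, 16.6 and 29.5 in HFD (log2 fold change 0.89, SE 0.30, unadjusted edgeR p of 0.0121). As for *Tac2*, HFD1 and HFD3 lay above every NCD library and HFD2 within their range. The tanycyte list, led by *Col25a1*, summed to 201, 132 and 182 CPM in NCD and 190, 149 and 252 in HFD. Of 5 astrocyte markers, *Gfap* alone had such a p (log2 fold change 0.88, SE 0.35, unadjusted edgeR p of 0.0275), with 216, 207 and 83.0 CPM in NCD and 406, 328 and 197 in HFD. The sum of the astrocyte list, led by *Aldoc*, was 3193, 3548 and 2519 CPM in NCD and 3583, 3502 and 2300 in HFD. Of 5 endothelial markers, *Cldn5* alone had such a p, with lower values in HFD (log2 fold change -0.48, SE 0.21, unadjusted edgeR p of 0.0406), and the list, which it also led, summed to 184, 168 and 136 CPM in NCD and 146, 152 and 153 in HFD. The pituitary marker *Cga*, the alpha subunit of glycoprotein hormones, measured 9.38, 4.17 and 14.9 CPM in NCD and 14.6, 10.6 and 47.9 in HFD (log2 fold change 1.36, SE 0.54, unadjusted edgeR p of 0.0259), while *Gh* and *Prl*, the growth hormone and prolactin genes, had 0 counts in all 6 libraries. *Tshb* was also highest in HFD3, with 1.38, 0.203 and 1.65 CPM in NCD and 1.61, 0.0985 and 4.32 in HFD. Its log2 fold change was 0.79 (SE 0.93). *Lhb*, which was not tested, had its highest value in HFD3 as well, at 2.07 CPM. The pituitary list, most of it *Cga*, summed to 10.8, 4.58 and 17.3 CPM in NCD and 16.3, 11.1 and 54.3 in HFD. No marker of ependyma, oligodendrocytes, microglia or neurons at large had an unadjusted edgeR p under 0.05. The neuronal list, led by *Snap25*, summed to 2478, 2859 and 2661 CPM in NCD and 2463, 2920 and 2379 in HFD. The part of the position of the cut and of these cell types in the differences of *Tac2* and the *Kiss1* locus was not tested.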

How the data were processed

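The authors made libraries from oligo(dT)-enriched mRNA, aligned NovaSeq reads with HISAT2 and derived values per gene with StringTie and RSEM, against mm10 per the labels. Their deposited table holds read counts per gene and sample, not normalized, and FPKM, which the authors scaled to transcript length and mapped reads. Its group means, fold changes, p-values and FDR are the authors' own comparison and were not used. RSEM divides reads between overlapping genes.

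Symbols, positions and transcripts came from GENCODE M21 (GRCm38), which held 22267 of the 22322 identifiers. Of all identifiers, 4145 had no count. Genes passing filterByExpr (14188) were normalized with TMM and tested with edgeR's quasi-likelihood test, the diet being the only term, with Benjamini-Hochberg adjustment over all of them. Log2 CPM used a prior count of 2, except in the relations to library size, which used the log2 of the normalized CPM without one. Ratios and shares were compared by two-sided exact permutation tests. Total counts ranged from 5171381 to 15925648. The scripts were tested on simulated data.

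The members, the gene lists and the tests were chosen with earlier results of these data known. The text names the members, genes of the lists and, for the summed locus, *Tac2* and *Pdyn*, the 3 genes tested with the closest profile. Some items that this rule or the lists name are not reported here. Alternatives were RLE factors, library totals alone, DESeq2, other filters (at least 1 count, a mean of at least 50), limma with trend on log2(FPKM + 1) and log2(FPKM + 0.1) where the mean FPKM reached 0.5, the library size (log2 total count) as a covariate, the replicate number as a block and each sample left out. Leaving out NCD1 and HFD1 together was chosen after seeing the data. No amino acid sequences were used here. Software was Python 3.11.15 with scipy 1.17.1 and matplotlib 3.10.9, and R 4.3.3 with DESeq2 1.42.0, limma 3.58.1 and edgeR 4.0.16.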

Additional observations from a re-analysis of the deposited data

How the results depend on the processing

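The summed *Kiss1* and *Gm28040* locus, *Gm28040* and *Tac2* kept their direction under every alternative run, and no member or sum reached an adjusted p under 0.05 in any. The log2 fold change ran from 0.51 (log2 total count as a covariate) to 1.33 for the summed locus, from 0.74 to 1.60 for *Gm28040* and from 0.23 (NCD1 and HFD1 left out) to 0.80 for *Tac2*. Their unadjusted p stayed under 0.05 in 10 of 16, 12 of 15 and 10 of 16 alternatives. *Kiss1* turned to -0.62 with the covariate and ran from -1.12 to 1.30 when each library was left out. *Pdyn*, at -0.0046, turned to 0.0017 with RLE factors and with DESeq2, 0.0058 where genes averaged 50 counts or more, 0.033 with the replicate block, 0.034 and 0.035 with the FPKM pseudocounts of 1 and 0.1, 0.28 with the covariate, and ran from -0.19 to 0.24 with each library left out. Leaving out each library gave *Tacr3* -0.49 to 0.036, *Oprk1* -0.13 to 0.15, *Kiss1r* -0.33 to 0.55, and the *Gm28040* share a difference of -3.94 to 30.8 percentage points. The cause of these turns was not tested. Of all genes, 19 (DESeq2), 15 (at least 1 count), 17 (replicate block), 15 (covariate) and 5 (either FPKM pseudocount) had an adjusted p under 0.05, and 1 to 16 with each library left out. At an unadjusted p under 0.05 and over 1.5-fold, 270 genes passed in the main comparison. This count was 427 for genes with at least 1 count and 179 with a mean of at least 50. With each library left out it ran from 195 without HFD1 to 982 without NCD3, and was 606 without HFD2. Genes without overlap numbered 1555 to 3462 with a library left out, where fewer samples make overlap rarer. *Golt1a* and the second *Gm28040* identifier gave no fitted value, and *Kiss1*, *Gm28040* and *Kiss1r* none where a mean of 50 counts was asked for.

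The labels give no link between same-numbered samples of the diets beyond the number, and whether it marks a batch or a pair is not stated. NCD1 and HFD1 both had 0 *Kiss1* counts. The deviations of same-numbered samples from the group means correlated at -0.012, 0.113 and 0.369, and 3 of 6 samples matched best with their own number. With the replicate block the log2 fold change was 0.93 for the summed locus (unadjusted edgeR p of 0.0103), 0.94 with *Golt1a* added, 0.60 for *Tac2* (unadjusted edgeR p of 0.0213), 1.27 for *Gm28040*, 0.18 for *Kiss1*, -0.37 for *Tacr3*, 0.02 for *Oprk1* and 0.13 for *Kiss1r*, and 376 genes passed p under 0.05 and 1.5-fold. Within pairs, where the smallest exact p is 0.25, exact permutation tests gave p = 0.5 for the *Gm28040* share, 0.75 for the ratio of *Tac2* to *Pdyn* and 0.25 for that of *Tac2* to the summed locus. The block changed no call of a member. Counts of 0 to 42 in a library limit the precision of the *Kiss1* row, counts of 15 to 99 that of *Gm28040*, and a library of 5171381 counts that of *Tacr3* and *Kiss1r* in HFD3.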
